A study of Homo sapiens with 22 samples.

Results

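The genes described here are 9 components of Wnt signaling in melanoma cell lines: the ligands WNT5A and WNT5B, the secreted antagonists DKK1, DKK3 and SFRP1, the transcription factors LEF1 and TCF7, and the pathway targets AXIN2 and WISP1. They were taken by symbol from a list, out of 33538 genes in the first single-cell table and 36601 in each of the other two, where WISP1 carries its current symbol CCN4. The rule goes by name, but the set was drawn up with earlier results of these data known, so the counts that follow are a description of these genes.

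Wnt ligands bind Frizzled receptors. In the canonical branch this stabilizes beta-catenin, which enters the nucleus and works through TCF and LEF factors on target genes such as AXIN2, itself a feedback inhibitor of the pathway. WNT5A mostly acts in branches that do not need beta-catenin and is known in melanoma for its link with invasive, poorly pigmented cells. The secreted antagonists act outside the cell: DKK1 blocks the LRP co-receptors, SFRP1 binds Wnt proteins directly, and DKK3 is a relative of DKK1 whose role is less settled. WISP1 (CCN4) is a secreted matricellular protein.

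WM989 and WM983B are human melanoma cell lines with mutated BRAF, and the cells of each are the offspring of 1 clone. The study separated primed cells, which more often survive BRAF and MEK inhibitors, from drug-susceptible cells, and no sample received those inhibitors. The first experiment held 12531 untreated cells from WM989 cultures given lentiviral lineage barcodes, in 8 wells (wells 1 to 4 are replicate r1 and wells 5 to 8 replicate r2), where each starting culture was either a mix of live cells or sorted for high EGFR and NGFR. Each culture was spread over 2 wells of the cell-capture chip, so the wells are not all separate cultures, and which well held which culture was not used. The second held 1449 untreated WM983B cells of 1 library. The third held 40021 WM989 cells, from a culture also given lentiviral lineage barcodes, in 8 libraries, 2 for each of 4 conditions. These were untreated cells, cells given the cytokine TGFB1, cells given the TGFB receptor inhibitor LY2109761 (TGFBRi) and cells given the PI3K inhibitor GDC-0941 (PI3Ki). The treatments lasted several days, and both replicates (r1 and r2) were expanded side by side and divided over the 4 conditions. The labels call 1 library of each treatment Mix and the other Primed, while the cell tables call them r1 and r2. These names were not matched. Each p-value for a treatment against untreated sets the difference against the variation left between libraries once the shared r1 to r2 shift is removed. That variation was estimated over all treatments together, from only 2 libraries of each. The tests of whether an effect differs between primed and drug-susceptible cells had a term for each library instead. An r1 to r2 shift in the difference between those cells was not removed there. ATAC-seq was done on WM989 cells with high EGFR, high NGFR, or both (EGFR-high, NGFR-high and EGFR/NGFR-high) and on cells labelled Mix, with 3 libraries of each sort. The methods name a sort negative for both markers and no mixed one, so Mix was taken to be that sort, which the labels do not say.

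The median cell held 53571 UMIs (unique molecular identifiers, each standing for 1 captured transcript) in the first experiment, 66668 in the second and 16321 in the third. Of the 16-base cell barcodes, 19 of 12512 occurred in more than 1 well of the first experiment and 194 of 39827 in more than 1 library of the third. Levels are given in CPM, the share of all UMIs in the cells in question that belonged to a gene, scaled to 1000000. In WM989 of the first experiment the authors' primed cells, 22.7% of all, had 7.09 CPM of the melanocytic factor SOX10 against 130 CPM in the others, called drug-susceptible, and 42.3 against 0.469 CPM of the receptor AXL. In WM983B, where 50.4% of cells were primed, SOX10 was at 192 and 208 CPM and AXL at 76.2 and 24.2 CPM. Of 10 markers of leukocytes, endothelium and epithelium, 6 were higher and 3 lower in primed WM989 cells (5 and 3 in WM983B), and in WM989 their summed level was 227 against 108 CPM. The largest parts of that sum came from KRT18 (110 against 62.7 CPM), CD68 (91.8 against 44.7 CPM) and PECAM1 (22.8 against 0.183 CPM). The defining leukocyte gene PTPRC was at 0.0260 CPM and the epithelial gene KRT5 at 0 in primed WM989 cells. The part of these genes in the results below was not tested.

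The first experiment addressed which pathways go with the memory of the 2 states and the switching between them. The authors assigned the states by clustering cells on the same counts, so the levels in the states are a description and carry no test. In WM989, 6 of the 9 genes were at least 2-fold higher in primed cells and LEF1 was at least 2-fold lower. Over all 13194 genes at 1 CPM or more in either state, 13.7% were at least 2-fold higher and 7.91% at least 2-fold lower. WNT5B and DKK3 did not reach 1 CPM in either state and are not counted.

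Among the ligands, WNT5A stood at 54.4 CPM (95% Poisson interval 53.4 to 55.5) in the primed state of WM989 and at 0.621 CPM (0.558 to 0.690) in the other, 87.6 times lower. All such intervals cover counting error only. In single wells, the level of WNT5A in primed cells had a lowest value of 9.41, a median of 30.9 and a highest value of 80.3 CPM, against 0.141, 0.989 and 3.005 CPM in drug-susceptible cells. The ranges over wells did not overlap, and the ratio within a well was between 21.0 and 80.9. Of 2843 primed cells 66.7% held a WNT5A UMI, against 2.25% of 9688 drug-susceptible cells, with median depths of 58253 and 52835 UMIs. After thinning every cell to 10000 UMIs the shares were 31.2% and 0.472%. WNT5B, its close relative, was represented by 22 UMIs in all primed and 43 in all drug-susceptible cells, at 0.114 CPM (0.0717 to 0.173) and 0.0770 CPM (0.0557 to 0.104), and these intervals overlapped. Within wells WNT5B was higher in primed cells in 8 of 8, from few UMIs in each.

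Among the antagonists, DKK1 stood at 44.4 CPM in the primed and 1.14 CPM in the drug-susceptible state, a ratio of 39.0 (16.5 to 41.7 within wells). Over the wells its level in primed cells ran from 10.3 through a median of 36.2 to 82.9 CPM, and in drug-susceptible cells from 0.299 through 1.49 to 2.94 CPM, again without overlap. Only 28.6% of primed cells held a DKK1 UMI, 10.8% after thinning, against 3.08% and 0.746% of drug-susceptible cells. SFRP1 was at 279 and 17.7 CPM, a ratio of 15.8 that was above those within wells (7.05 to 13.3, median 8.76), and 94.7% of primed cells held a UMI of it. In primed cells SFRP1 ran over the wells from 94.0 through 221 to 324 CPM, and in drug-susceptible cells from 13.3 through 19.4 to 34.6 CPM. DKK3 came to 39 UMIs in primed cells and 7 in drug-susceptible cells, at 0.203 CPM (0.144 to 0.277) and 0.0125 CPM (0.00504 to 0.0258).

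The 2 transcription factors went opposite ways. TCF7 was at 11.4 CPM in the primed against 1.87 CPM in the drug-susceptible state, a ratio of 6.10, and was higher in primed cells in 8 of 8 wells. LEF1 was at 19.97 CPM in the primed against 68.1 CPM in the drug-susceptible state, a ratio of 0.293, and was lower in primed cells in 8 of 8 wells. LEF1 ran over the wells from 12.2 through 21.8 to 32.7 CPM in the primed state and from 54.0 through 68.7 to 88.5 CPM in the other, without overlap. Primed cells held a LEF1 UMI in 58.7% of cases and drug-susceptible ones in 88.9%, or 16.5% and 45.5% after thinning.

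Of the targets, AXIN2 was low in both states, at 1.05 CPM (0.906 to 1.201) where cells were primed and 0.510 CPM (0.453 to 0.573) where they were not, a ratio of 2.05. The level of AXIN2 over the wells ran from 0.529 to 2.08 CPM in the primed state and from 0.0971 to 0.629 CPM in the other, and these ranges overlapped. Within wells AXIN2 was higher in primed cells in 8 of 8. WISP1 was at 39.9 against 0.124 CPM over all wells. Within wells the ratio ran from 28.1 to 316 with a median of 84.7, where drug-susceptible cells with under 3 UMIs entered at the limit of 3 counts. Drug-susceptible cells held 1, 28, 3, 2, 13, 22, 0 and 0 WISP1 UMIs in wells 1 to 8, and a WISP1 UMI was found in 0.547% of them against 47.1% of primed cells, or 0.0705% and 21.1% after thinning.

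**Figure D1:**
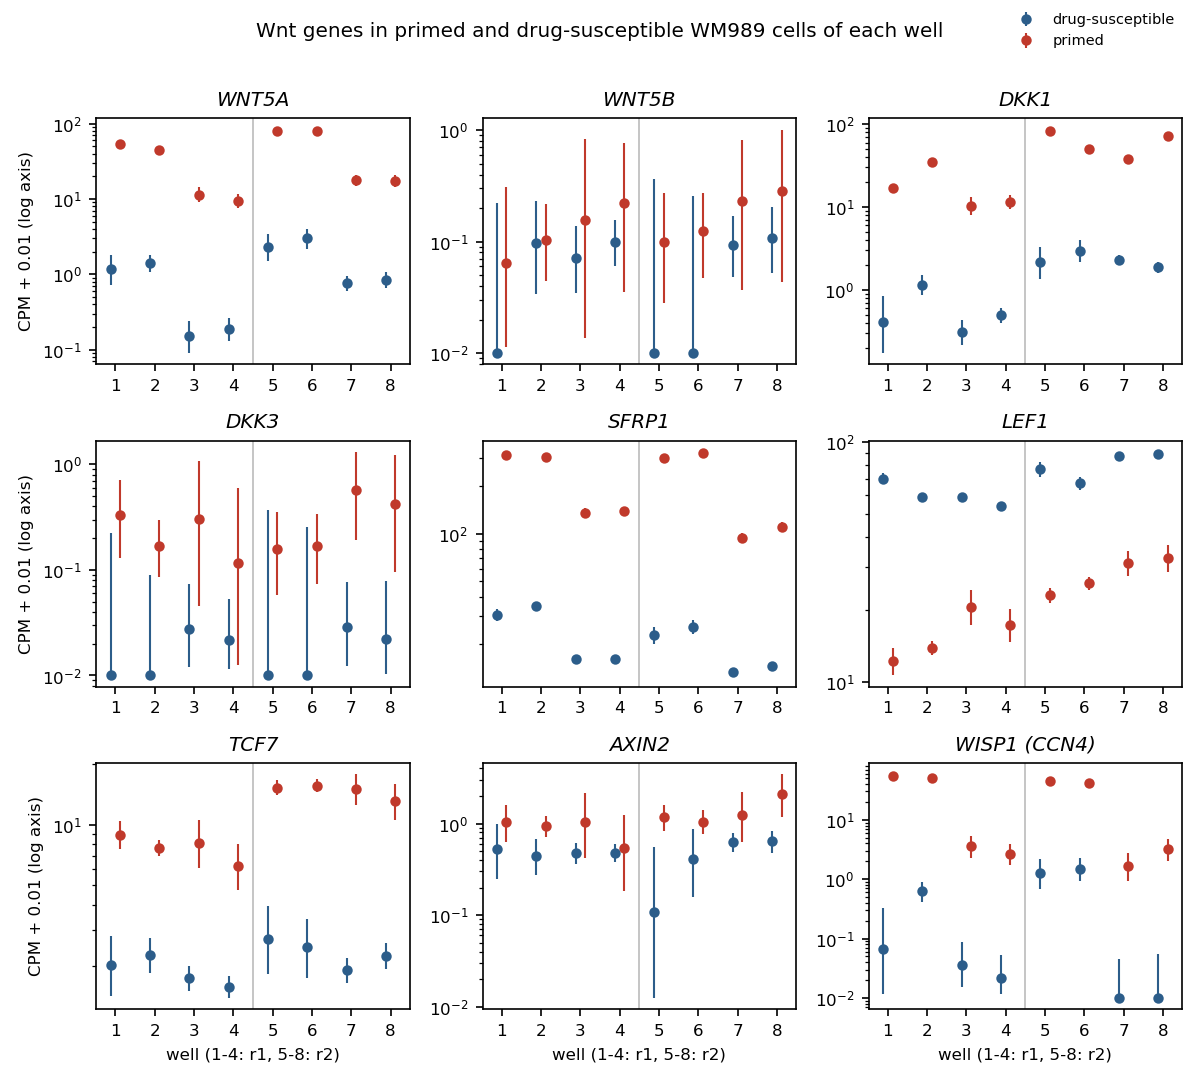
Level of each of the 9 genes (CPM + 0.01, log axis) in the primed (red) and drug-susceptible (blue) cells of each of 8 wells of WM989, with 95% Poisson intervals that cover counting error only; the grey line divides r1 from r2. LEF1 is lower in primed cells in 8 of 8 wells, while WNT5A, WNT5B, DKK1, DKK3, SFRP1, TCF7, AXIN2 and WISP1 are higher in 8 of 8, WNT5B and DKK3 from few UMIs.

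The level among primed cells differed between wells, most of all for WISP1. It was 54.7, 50.8, 45.4 and 41.2 CPM in wells 1, 2, 5 and 6, and 3.55, 2.64, 1.67 and 3.19 CPM in wells 3, 4, 7 and 8. WNT5A was at 53.8, 44.1, 80.3 and 79.7 CPM in the first 4 of these wells and at 11.4, 9.41, 17.6 and 17.3 CPM in the other 4. Drug-susceptible cells differed between the same wells: WNT5A was at 1.15, 1.39, 2.33 and 3.005 CPM in wells 1, 2, 5 and 6 and at 0.141, 0.179, 0.755 and 0.827 CPM in the other 4, and SFRP1 at 22.7 to 34.6 and at 13.3 to 16.04 CPM. The make-up of the primed cells differed between these wells too. Among primed cells, cluster 2 held 68.0% to 78.1% of those of wells 1, 2, 5 and 6 and 2.66% to 16.4% of those of wells 3, 4, 7 and 8, where cluster 8 held 52.6% to 73.4%. The share of primed cells was 56.9% to 79.7% in wells 1, 2, 5 and 6 and 6.85% to 9.42% in the other 4, and what it contributes to the levels was not tested.

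The authors divided the primed WM989 cells into clusters 2, 8 and 9. WNT5A was at 65.3 CPM in cluster 2, 53.9 in cluster 9 and 15.8 in cluster 8, and this order held in r1 (49.8, 38.8 and 12.2 CPM) and in r2 (82.7, 64.6 and 21.3 CPM). SFRP1 and WISP1 followed the same order in both replicates. WISP1 was at 55.5, 42.1 and 7.84 CPM in clusters 2, 9 and 8 of r1 and at 48.1, 28.4 and 1.55 CPM in r2. DKK1 did not: it was at 39.9 CPM in cluster 2 and 14.7 in cluster 8 of r1, but at 81.5 and 90.0 CPM in r2, so these 2 clusters changed places, while cluster 9 was lowest in both (2.78 and 13.4 CPM). TCF7 lay between 6.77 and 8.84 CPM in the 3 primed clusters of r1 and between 11.7 and 16.1 CPM in those of r2, a smaller difference between clusters than between replicates. LEF1 was lowest in cluster 2 (11.2 and 24.1 CPM) and highest in cluster 8 (23.8 and 35.1 CPM) of the primed clusters in both replicates.

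Among the 8 drug-susceptible clusters, WNT5A was highest in cluster 4 (2.43 CPM, 0.206 to 0.840 in the others) and DKK1 in clusters 10 and 4 (4.69 and 3.24 CPM). The replicates differed: DKK1 was at 1.23 CPM in cluster 10 and 1.40 in cluster 4 of r1, but at 16.8 and 7.77 CPM in r2, and WNT5A in cluster 4 was at 1.28 and 5.24 CPM. LEF1 was highest in clusters 6 and 7 (89.5 and 85.4 CPM) and lay between 57.3 and 75.4 CPM in the others. In each of these 8 clusters LEF1 was higher in r2 than in r1.

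Single primed cells often held UMIs of more than 1 of the genes. Of 1896 primed cells with a WNT5A UMI, 30.7% also held one of DKK1 and 59.4% one of WISP1. Of the 812 primed cells with DKK1, 71.8% held WNT5A and 51.5% WISP1. SFRP1 was found in 97.4% of the primed cells with WNT5A. Over all primed cells the shares were 66.7% for WNT5A, 28.6% for DKK1, 47.1% for WISP1 and 94.7% for SFRP1. Most of the joint shares were only a little above these. The furthest above in percentage points was WNT5A among the 1339 primed cells with WISP1, at 84.1%, and then WISP1 among those with WNT5A. Deeper cells are more likely to hold both genes of a pair, and RNA from outside a cell can add UMIs; the shares were corrected for neither. In drug-susceptible cells a UMI was found in 2.25% for WNT5A, 3.08% for DKK1 and 0.547% for WISP1.

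Across the 22 sums of a cluster in a replicate with at least 20 cells, Pearson correlations of log2(CPM + 1) placed SRGN, DPYD and GNG11 closest to WNT5A (r = 0.986, 0.986 and 0.985). COL6A2, BGN and EGFR were closest to SFRP1 (r = 0.991, 0.987 and 0.985), and LMO2, CYTIP and AKR1B1 to WISP1 (0.982, 0.977 and 0.977). For TCF7 they included FOXF1 and PDGFC (0.986 and 0.978) and for DKK1 ATXN1, ERCC6 and CRIM1 (0.941, 0.932 and 0.931). Those closest to LEF1 included C5orf30 and TGIF2 (0.982 and 0.970), genes that were lower in primed clusters as it was. The closest genes to AXIN2 were SEMA3A, RPS6KA2 and SLC38A2 (0.854, 0.851 and 0.850), to DKK3 SERINC2, KLF2 and TAGLN2 (0.932, 0.928 and 0.927), and to WNT5B MGAT4B, LSS and ATP9A (0.542, 0.537 and 0.528). The sums share wells, depth and the division into states, so the correlations describe these clusters only.

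**Figure D2:**
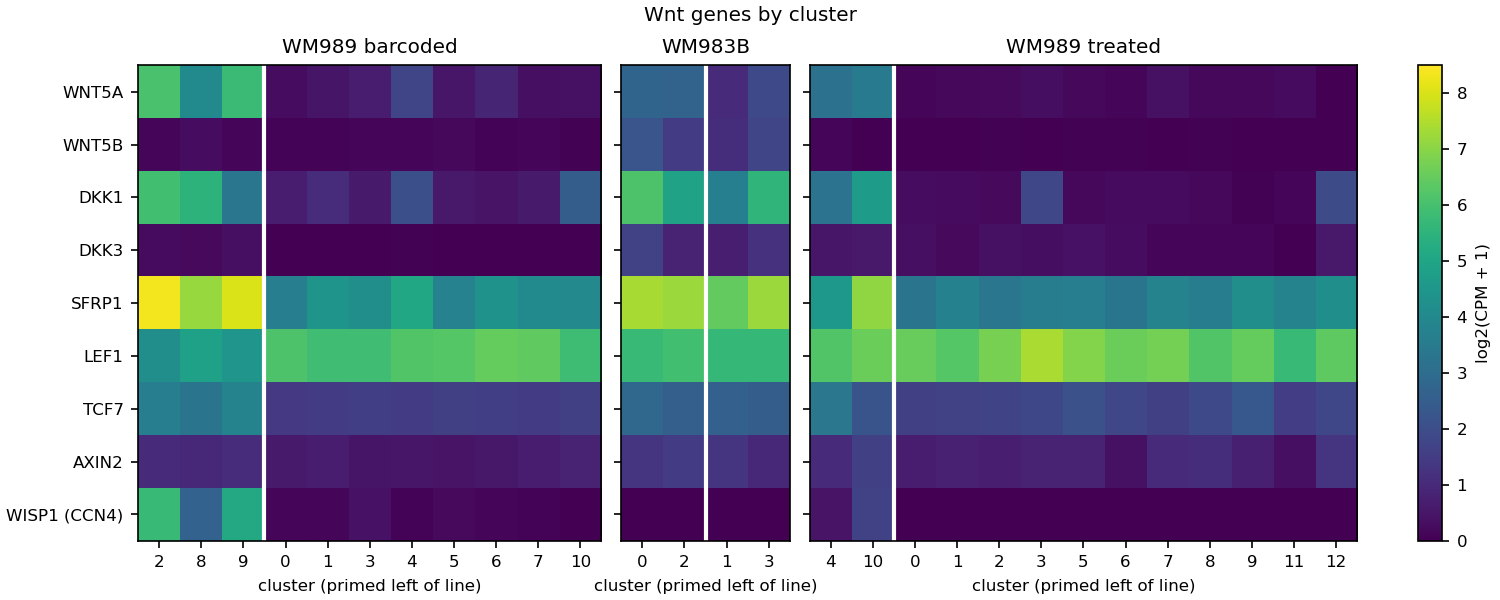
Level of the 9 genes (log2(CPM + 1), color) in each cluster of the 3 single-cell experiments, with the authors' primed clusters left of the white line in each panel. LEF1 is at 17.3 to 28.2 CPM in the primed and 57.3 to 89.5 CPM in the other clusters of the first experiment (panel WM989 barcoded), and WISP1 (CCN4) is at 0 in all WM983B clusters.

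In WM983B, 4 of the 9 genes were at least 2-fold higher in primed cells and none was at least 2-fold lower, over 8 genes at 1 CPM or more. Of 13769 genes, 2.87% were at least 2-fold higher and 1.37% at least 2-fold lower. This experiment has 1 library, so the ratios have no replicate check. WNT5A was at 5.63 CPM (4.99 to 6.34) in the primed against 1.30 CPM (1.01 to 1.64) in the drug-susceptible state, a ratio of 4.34, and 24.2% against 7.94% of cells held a UMI of it (13.5% and 3.47% when thinned to 30000 UMIs). Both genes that were nearly absent from WM989 were measurable here: WNT5B was at 3.50 and 1.32 CPM, a ratio of 2.66, and DKK3 at 2.03 and 0.742 CPM, a ratio of 2.73. DKK1 was at 63.5 and 16.5 CPM, a ratio of 3.84. SFRP1 was at 165 and 96.0 CPM, a ratio of 1.72.

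The genes at the nuclear end of the pathway differed little between the WM983B states. LEF1 was at 53.1 CPM (51.1 to 55.2) in the primed against 49.1 CPM (47.2 to 51.0) in the drug-susceptible state, a ratio of 1.08. TCF7 was at 6.18 and 4.99 CPM and AXIN2 at 1.49 and 1.41 CPM, with overlapping intervals for both genes. No CCN4 UMI was found in 731 primed or 718 drug-susceptible cells, which allows a level of up to 0.0614 and 0.0557 CPM. By cluster, DKK1 was at 68.8 CPM in primed cluster 0 and 28.5 in primed cluster 2, and at 11.8 CPM in drug-susceptible cluster 1 and 46.1 in drug-susceptible cluster 3, so the clusters of the 2 states overlapped. WNT5A was at 5.64 and 5.58 CPM in the primed clusters and at 1.08 and 2.67 CPM in the drug-susceptible ones.

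The third experiment asked how TGFB1 and 2 inhibitors change the states. Primed cells made up 2.26% and 4.47% of the untreated libraries (r1 and r2), 29.1% and 31.3% of the TGFB1 libraries, 2.26% and 4.32% of the TGFBRi libraries and 0.647% and 1.21% of the PI3Ki libraries. The 3 comparisons share the untreated libraries. The UMIs of each library were summed and tested with edgeR across all genes, and 7 of the 9 genes passed its filter on low counts, which left out WNT5B and CCN4. Fewer primed cells and less RNA per cell cannot be told apart in such sums.

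As a description, WNT5A in the untreated libraries was 73.5 and 98.0 times higher in primed than in drug-susceptible cells of r1 and r2, and SFRP1 11.6 and 13.2 times. The WNT5A ratios rest on few UMIs, 9 in primed and 7 in drug-susceptible cells of r1 and 47 and 15 in r2. TCF7 was 1.26 and 1.64 times higher, from 4 and 10 UMIs in primed cells. LEF1 was at 90.9 and 100.2 CPM in primed and 92.8 and 88.1 CPM in drug-susceptible cells there, so the lower level of the first experiment was not seen. In the TGFB1 libraries LEF1 was at 73.8 and 76.6 CPM in primed cells, 0.489 and 0.497 times the level in drug-susceptible cells.

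With TGFB1, 4 of the 7 genes rose over all cells and none fell, where 29.0% of 18389 genes changed in either direction, 16.3% up and 12.7% down. The median log2 fold change was 0.54 over the 7 genes and 0.01 over all genes. WNT5A was at 0.205 and 0.773 CPM in the untreated and 1.45 and 3.05 CPM in the TGFB1 libraries, with no overlap. Its log2 fold change was 2.21 ± 0.20 (SE; edgeR quasi-likelihood test, adjusted p = 1.22e-08), and 2.81 without untreated r2. DKK1 rose from 0.986 and 0.686 CPM to 2.79 and 2.98 CPM, a log2 fold change of 1.77 ± 0.30 (adjusted p = 8.45e-05), a call that DESeq2 did not make (adjusted p = 0.113). With 1 library left out the value ran from 1.16, without untreated r2, to 2.41. TCF7 rose from 2.37 and 2.51 to 4.43 and 4.36 CPM, a log2 fold change of 0.84 ± 0.11 (adjusted p = 5.52e-06). LEF1 rose from 92.8 and 88.5 to 132 and 134 CPM, a log2 fold change of 0.54 ± 0.06 (adjusted p = 7.90e-07). In all 4 genes both TGFB1 libraries lay above both untreated ones. SFRP1 (0.05 ± 0.09), DKK3 (0.04 ± 0.34) and AXIN2 (0.16 ± 0.19) did not pass the test.

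The 4 genes that rose differed in which cells held their UMIs. In the TGFB1 libraries, primed cells gave 94.8% and 91.1% of all WNT5A UMIs, 68.6% and 76.3% of those of DKK1, 57.3% and 52.2% of those of TCF7, but 14.1% and 15.1% of those of LEF1. Cluster 3, which the authors counted as drug-susceptible, gave 48.6% and 35.2% of the LEF1 UMIs. The level of LEF1 there was 171 and 180 CPM, against 72.7 and 73.4 CPM in the primed cluster 4 of the same libraries.

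**Figure D3:**
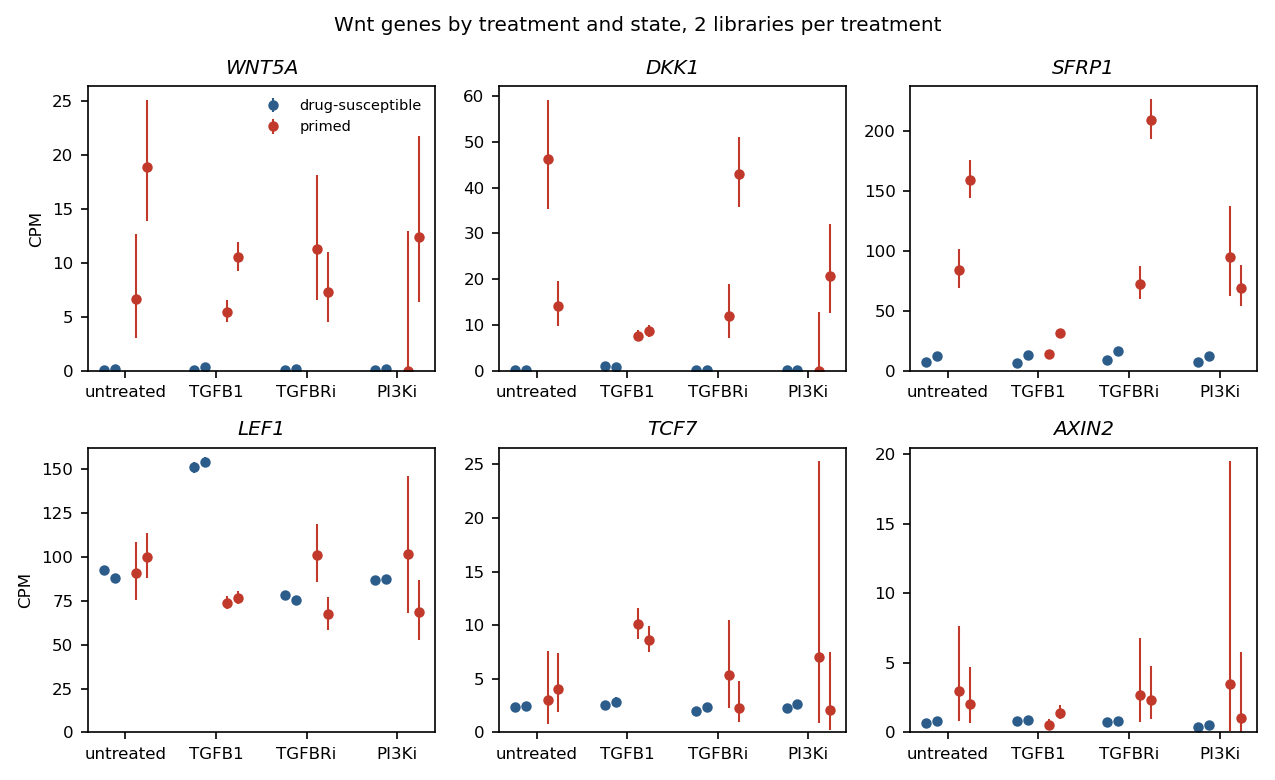
Level (CPM) of 6 genes in drug-susceptible (blue) and primed (red) cells of each library of the treatment experiment, with r1 left and r2 right within each pair and 95% Poisson intervals that cover counting error only. LEF1 in drug-susceptible cells is at 151 and 154 CPM with TGFB1 and between 75.6 and 92.8 CPM in the other 6 libraries.

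Within drug-susceptible cells, 2 of the 7 genes tested rose with TGFB1 and none fell (14.9% of 17914 genes changed, 8.56% up and 6.32% down). LEF1 was at 92.8 and 88.1 CPM in the untreated and 151 and 154 CPM in the TGFB1 libraries, a log2 fold change of 0.74 ± 0.07 (edgeR adjusted p = 1.21e-08). DKK1 was at 0.195 and 0.257 CPM in the untreated and 1.17 and 0.961 CPM in the TGFB1 libraries, a log2 fold change of 2.21 ± 0.27 (adjusted p = 1.80e-06). Few cells held these UMIs, 12 of 4058 and 15 of 3527 untreated and 39 of 3842 and 33 of 3858 TGFB1-treated ones. WNT5A was at 0.0912 and 0.193 CPM without and 0.1003 and 0.368 CPM with TGFB1, and these values overlap. Its log2 fold change of 0.69 ± 0.41 did not pass the test (adjusted p = 0.300). TCF7 (0.14 ± 0.13) and SFRP1 (0.00 ± 0.08) did not pass either.

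The drug-susceptible cells lay in different clusters with and without TGFB1. Cluster 3 held 56.8% and 42.0% of them in the TGFB1 libraries (r1 and r2) and 1.38% and 1.67% in the untreated ones. It also held 62 of the 70 and 53 of the 60 DKK1 UMIs of drug-susceptible cells with TGFB1. Outside cluster 3, DKK1 was at 0.268 and 0.174 CPM with and 0.171 and 0.235 CPM without TGFB1, and its log2 fold change of 0.03 ± 0.47 did not pass (edgeR adjusted p = 0.976). LEF1 outside cluster 3 was at 131 and 140 CPM with and 92.7 and 88.0 CPM without TGFB1, and it still rose, by 0.57 ± 0.07 on the log2 scale (adjusted p = 1.76e-06). Leaving out cluster 3 was chosen after seeing the data.

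Within primed cells, cluster 4 held 1548 of 1577 and 1706 of 1757 primed cells of the TGFB1 libraries, and cluster 10 held 89 of 94 and 159 of 165 of the untreated ones. The comparison is therefore largely between these 2 clusters, which the authors drew on the same counts. The median primed cell held 11098 and 11187 UMIs with and 12424 and 14535 without TGFB1. The 10 markers of other cell types summed to 232.5 and 207.4 CPM in primed cells with TGFB1 and to 141.6 and 162.6 CPM without, where KRT18 gave 182 and 159.9 against 79.7 and 111.5 CPM, CD3E, CDH5, EPCAM and KRT5 were at 0 in all 4 libraries and PTPRC had 1 UMI in TGFB1 r2 and none in the others. The part of these markers in the changes was not tested. Of the 5 genes tested 1 rose and 2 fell (13.3% of 10930 genes changed, 6.21% rose and 7.09% fell). SFRP1 was at 84.2 and 159 CPM in untreated primed cells and at 14.3 and 31.5 CPM with TGFB1, with no overlap, a log2 fold change of -2.34 ± 0.17 (edgeR adjusted p = 4.63e-14). DKK1 was at 46.2 and 14.1 CPM in untreated primed cells and 7.61 and 8.63 CPM with TGFB1. The UMIs of the untreated libraries came from 10 of 94 and 17 of 165 primed cells, and those of the TGFB1 libraries from 76 of 1577 and 79 of 1757. Its log2 fold change was -1.62 ± 0.34 (adjusted p = 5.54e-04). Without the untreated library r1 it was -0.32 and no longer passed (adjusted p = 0.762), nor did it pass in DESeq2 (0.590), and without untreated r2 it was -2.83. TCF7 was at 2.98 and 4.02 CPM in untreated primed cells, from 4 and 10 UMIs, and at 10.1 and 8.63 CPM with TGFB1, a log2 fold change of 1.39 ± 0.38 (adjusted p = 0.00841). That call was lost when any 1 of the 4 libraries was left out, with values between 1.12 and 1.90, and in DESeq2 (adjusted p = 0.199). WNT5A (-0.65 ± 0.29, adjusted p = 0.150) and LEF1 (-0.28 ± 0.14, adjusted p = 0.212) did not pass the test.

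**Figure D4:**
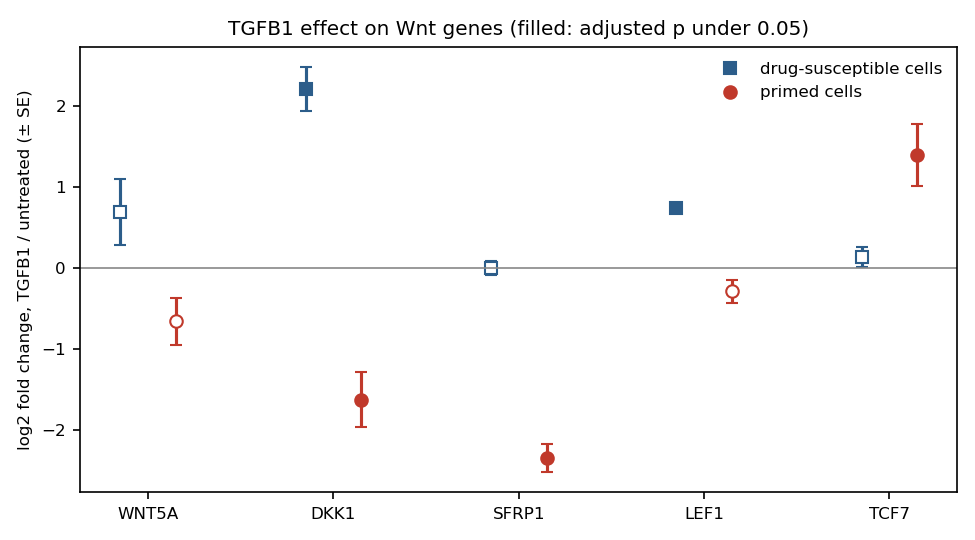
Log2 fold change of TGFB1 against untreated (± SE, edgeR) for 5 genes in drug-susceptible (blue squares) and primed (red circles) cells, with filled symbols for an adjusted p under 0.05. DKK1 lies at 2.21 in drug-susceptible and -1.62 in primed cells, and SFRP1 at 0.00 and -2.34.

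The difference between the TGFB1 effects in the 2 states was tested as an interaction, in which 4 of 8 genes passed (9.98% of 18502 genes, 5.49% higher and 4.49% lower in primed cells). The states were assigned after treatment on the same counts, and with TGFB1 other clusters make up much of each. These p-values therefore do not compare the same kinds of cells with and without TGFB1. The effect was lower in primed than in drug-susceptible cells by 3.82 ± 0.37 on the log2 scale for DKK1 (edgeR adjusted p = 1.09e-22), by 2.29 ± 0.13 for SFRP1 (5.10e-69) and by 0.95 ± 0.12 for LEF1 (6.72e-14). It was higher in primed cells by 1.38 ± 0.41 for TCF7 (0.0120), a call that was lost without any 1 of the 4 libraries. The DKK1 difference was -2.65 without untreated r1 and -4.72 without untreated r2. By replicate (r1 and r2) the log2 change of DKK1 was 2.58 and 1.90 in drug-susceptible and -2.60 and -0.71 in primed cells. In DESeq2 the DKK1 and TCF7 differences did not pass (adjusted p = 0.114 and 0.302). With cluster 3 left out of the drug-susceptible cells the DKK1 difference was -1.68 ± 0.58 (edgeR adjusted p = 0.0458) and that of LEF1 -0.79 ± 0.12 (1.72e-09).

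Few UMIs limited the other genes in primed cells. CCN4 was at 0.745 and 2.82 CPM in untreated, 0.249 and 0.447 CPM in TGFB1, 3.33 and 3.30 CPM in TGFBRi primed cells and at 0 in both PI3Ki libraries, where the primed cells numbered 25 and 70. WNT5A and DKK1 were also at 0 in the primed cells of PI3Ki r1, where 0 of 285360 UMIs allow up to 10.5 CPM.

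TGFBRi changed 1 of the 7 genes over all cells (2.53% of 18389 genes changed, 1.09% up and 1.45% down). SFRP1 was at 8.59 and 16.6 CPM in the untreated and 10.3 and 22.9 CPM in the TGFBRi libraries, so the groups overlapped and r2 was higher than r1 in both. With the replicate as a term its log2 fold change was 0.39 ± 0.09 (edgeR adjusted p = 0.0130). In drug-susceptible cells it was 0.40 ± 0.08 (adjusted p = 0.00489; 2.81% of 17914 genes changed, 1.22% up and 1.59% down), from 7.27 and 12.1 to 9.11 and 16.2 CPM. Neither call held without the replicate term (adjusted p = 0.881 and 0.830 in edgeR) or without the untreated library r2 (values of 0.36 and 0.33), and that over all cells was also lost without TGFBRi r2 (0.24). In primed cells none of 5 genes passed in edgeR (0.375% of 10930 genes did, 0.0732% up and 0.302% down) or in DESeq2. None of the 5 had an unadjusted p under 0.05 in edgeR, where 944 of 10930 genes did. LEF1 was at 78.6 and 75.3 CPM in the TGFBRi and 92.8 and 88.5 CPM in the untreated libraries, and this difference of -0.22 ± 0.06 did not pass (adjusted p = 0.0750). A difference in the TGFBRi effect between the states passed for none of 8 genes in edgeR or DESeq2 (0.551% of 18502 genes passed in edgeR, 0.238% higher and 0.313% lower in primed cells). None of the 8 had an unadjusted p under 0.05 in edgeR, where 1376 of 18502 genes did.

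With PI3Ki, 2 of the 7 genes fell over all cells and none rose (12.7% of 18389 genes changed, 5.83% up and 6.83% down). WNT5A was at 0.0712 and 0.237 CPM against 0.205 and 0.773 CPM in the untreated libraries, a log2 fold change of -1.48 ± 0.32 (edgeR adjusted p = 0.00283). These values rest on 5 and 29 UMIs against 16 and 62 and overlap between groups. In each replicate the PI3Ki value was the lower one, and in r1 the Poisson intervals overlapped (0.0231 to 0.166 and 0.117 to 0.333 CPM). AXIN2 was at 0.399 and 0.523 CPM against 0.704 and 0.872 CPM, a log2 fold change of -0.66 ± 0.21 (adjusted p = 0.0403). DKK1 (-1.14 ± 0.42, adjusted p = 0.0818) did not pass, and its value was -1.80 without untreated r2. The AXIN2 call was lost without any 1 of the 4 libraries (values between -0.77 and -0.60), and the WNT5A call without untreated r2 or PI3Ki r2 (values of -0.85 and -1.996). Neither passed without the replicate term (edgeR adjusted p = 0.286 for WNT5A and 0.167 for AXIN2), and AXIN2 did not pass in DESeq2 (0.223). In drug-susceptible cells none of the 7 genes passed in edgeR or in DESeq2 (12.1% of 17914 genes passed in edgeR, 5.89% up and 6.22% down). There AXIN2 stood at 0.386 and 0.519 CPM against 0.664 and 0.836 CPM (edgeR adjusted p = 0.0663, unadjusted p = 0.00922). AXIN2 and SFRP1, 2 of the 7 genes, had an unadjusted p under 0.05, as did 4475 of all 17914 genes. In primed cells, a comparison added once the cell numbers were known, SFRP1 was at 94.6 and 69.5 CPM with PI3Ki and 84.2 and 159 CPM without. Its log2 fold change of -0.90 ± 0.24 passed (adjusted p = 0.0395; 1.78% of 10930 genes changed, 0.467% up and 1.32% down) but turned to 0.24 without PI3Ki r2. That call was also lost without either untreated library, without the replicate term (edgeR adjusted p = 0.602) and in DESeq2 (0.670). Its PI3Ki effect was lower in primed than in drug-susceptible cells by 1.09 ± 0.18 on the log2 scale, the 1 of 8 genes to pass that test (edgeR adjusted p = 2.65e-06; 1.21% of 18502 genes passed, 0.351% higher and 0.859% lower). It was -0.32 without PI3Ki r2 and no longer passed, and DESeq2 gave no adjusted p for it.

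The wider pathway was read from a list of 95 other Wnt genes. With TGFB1 over all cells, 19 of 64 tested rose and 12 fell (16.3% and 12.7% over all genes), and the median log2 fold change of 0.09 was beside 0.01 over all genes. By role, 5 of 15 receptors rose and 3 fell, 5 of 8 targets rose and 2 fell, 4 of 10 nuclear factors rose and 2 fell, and 2 of 8 antagonists fell and none rose. The ligand WNT11 had no UMI in either untreated library and 66 and 61 in the TGFB1 libraries, at least 20.4-fold higher against a limit of 3 counts per library. WNT9A, another ligand, had none against 16 and 14 UMIs, at least 4.82-fold higher. NKD1, an intracellular feedback inhibitor that binds Dishevelled, rose from 0.756 and 0.860 to 10.2 and 11.98 CPM (log2 fold change 3.76 ± 0.12, edgeR adjusted p = 5.74e-16). The growth regulator MYC fell from 173 and 168 to 90.2 and 99.1 CPM (-0.86 ± 0.07, adjusted p = 1.70e-09), TNFRSF19, a receptor of the TNF receptor family, by 0.73 ± 0.10 on the log2 scale and the Frizzled receptor FZD5 by 0.70 ± 0.11.

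In drug-susceptible cells 9 of 62 listed genes rose with TGFB1 and 7 fell (8.56% and 6.32% over all genes), with a median of 0.06. JUN, a component of AP-1, rose by 1.99 ± 0.16 on the log2 scale, NKD1 by 1.76 ± 0.17 and the matricellular gene CCN2 by 1.71 ± 0.10, while MYC fell by 0.66 ± 0.07, the Frizzled receptor FZD7 by 0.56 ± 0.09 and FZD5 by 0.55 ± 0.12. In primed cells 3 of 44 rose and 7 fell (6.21% and 7.09% over all genes), with a median of -0.05: NKD1 rose by 4.02 ± 0.32, the co-receptor PTK7 by 3.08 ± 0.53 and the co-repressor TLE3 by 0.65 ± 0.20, while TNFRSF19 fell by 2.64 ± 0.37, FZD8 by 1.18 ± 0.35 and the antagonist FRZB by 1.01 ± 0.35. The TGFB1 effect differed between the states for 9 of 65 listed genes (9.98% over all genes). It was higher in primed cells for PTK7 (by 2.81 ± 0.59), NKD1 (by 2.33 ± 0.47) and the hyaluronan receptor CD44 (by 0.42 ± 0.09), and lower for JUN (-2.45 ± 0.15), TNFRSF19 (-2.20 ± 0.35) and FZD8 (-1.58 ± 0.45).

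With TGFBRi, 1 of 64 listed genes rose over all cells and 3 fell (1.09% and 1.45% over all genes): the secreted antagonist FRZB rose by 0.71 ± 0.09 on the log2 scale, from 9.01 and 10.9 to 16.1 and 16.03 CPM, and PORCN, which acylates Wnt proteins, fell by 0.40 ± 0.09, MYC by 0.31 ± 0.07 and the Wnt receptor RYK by 0.29 ± 0.07. In drug-susceptible cells the cyclin gene CCND1 joined FRZB among 2 of 62 that rose, and the same 3 genes fell (1.22% and 1.59% over all genes). In primed cells CCN2 rose alone of 44 (by 1.13 ± 0.27; 0.0732% of all genes rose). With PI3Ki, 3 of 64 rose and 8 fell over all cells (5.83% and 6.83% over all genes). FRZB fell by 1.36 ± 0.10, to 3.17 and 3.94 CPM, JUN by 0.84 ± 0.18 and the co-repressor TLE1 by 0.62 ± 0.08, while CCN2 rose by 0.46 ± 0.10, CTNNBIP1, an inhibitor of beta-catenin, by 0.26 ± 0.08 and TLE3 by 0.23 ± 0.08. In drug-susceptible cells 3 of 62 rose and 7 fell with PI3Ki (5.89% and 6.22% over all genes), among the latter FRZB (-1.37 ± 0.10), TLE1 (-0.63 ± 0.08) and TNFRSF19 (-0.54 ± 0.10), and in primed cells CD44 alone of 44 fell (by 0.67 ± 0.14; 1.32% of all genes fell). All changes named in these paragraphs had an edgeR adjusted p under the threshold of 0.05.

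Antisense transcripts overlap 2 of the genes. LEF1-AS1 was counted at 15.3 to 26.2 CPM over the 8 treatment libraries and WNT5A-AS1 at 0 to 0.307 CPM. The strand setting of the counting is not given in the sources used here, so reads of LEF1 and LEF1-AS1 may not be fully separate.

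ATAC-seq reads where chromatin is open. In each library the authors called peaks against the local background, and each peak carries a fold enrichment. The question for these genes was whether open chromatin near them differed between marker-high cells and Mix cells. The 9 marker-high libraries were compared with the 3 Mix libraries by an exact permutation test (two-sided, 220 splits, smallest p 0.00455), with a missing peak set to 1. The test treats the 12 libraries as exchangeable, though they are 3 libraries of each of 4 sorts. Its p therefore does not measure the variation between sorts, and any single sort lying furthest out could reach the smallest p. Gene starts were those of the canonical transcripts of GENCODE release 44 on hg38.

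At the gene starts themselves none of 7 genes with a peak in any library passed an unadjusted p of 0.05 (exact permutation test), where 7.7% of 13653 starts did. Over all starts no adjusted p was under 0.05, so unadjusted values are given. DKK1, LEF1, TCF7, AXIN2 and SFRP1 had a peak at the start in 12 of 12 libraries. At the LEF1 start (chr4:108168932, minus strand) the fold enrichment was 38.7 to 46.7 in Mix and 39.2 to 49.7 in marker-high libraries, which overlap. At the DKK1 start (chr10:52314281, plus strand) it was 24.0 to 29.6 in Mix and 17.1 to 33.6 in marker-high libraries. CCN4 had a peak at its start in 8 of 12 libraries, WNT5A (chr3:55487306, minus strand) in 1, and WNT5B and DKK3 in none. Peaks missing at a start say only that none passed the caller's threshold within 500 bp of it. Further in, a WNT5B region 2372 bp after the start had a peak in 12 of 12 libraries (60.6 to 111.7). So had a WNT5A region 2129 bp after its start (6.83 to 19.04).

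In all, 62 regions with a peak in at least 3 libraries lay within 10 kb of the canonical transcripts of the 9 genes or inside them, 6 of them at a start. Of these, 14 (22.6%) were higher and 3 (4.84%) lower in marker-high libraries at an exact p under 0.05, where 9.61% and 8.92% of 151653 regions were. No region of the 151653 had an adjusted p under 0.05, so higher and lower refer to unadjusted values. Neighbouring regions are not independent of each other. A peak in all 9 marker-high and in no Mix library was found at 5 of the 62 regions (8.06%), against 0.859% of all regions: 2 in DKK3 and 1 each in TCF7, AXIN2 and WISP1. The median fold enrichment over the 78175 regions with a peak in every library was 16.02 to 16.6 in Mix and 13.7 to 19.0 in marker-high libraries. After this was centred per library the exact p of the 14 higher regions was at most 0.0227.

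For 6 of the genes, 1 region outside annotated exons was taken, with the smallest p and then the largest difference. Its median summit and 100 bases on each side are given, on the plus strand of hg38, to show the sequence at the summit. The difference was measured on the whole region. The distance on each line runs from the gene start to the centre of the whole region, not to the summit. Capitals mark matches, on either strand, to the AP-1 motif TGANTCA, the TCF/LEF motifs CTTTGAT and CTTTGAA, the TEAD motif GGAATG and the E-box CACGTG.
AXIN2 intron, 7990 bp after the start, chr17:65553402-65553602: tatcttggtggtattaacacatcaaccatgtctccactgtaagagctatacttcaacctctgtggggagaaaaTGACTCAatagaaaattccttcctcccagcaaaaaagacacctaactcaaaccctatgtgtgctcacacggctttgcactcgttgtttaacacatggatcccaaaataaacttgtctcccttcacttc
DKK1 downstream, 4939 bp after the start, chr10:52319171-52319371: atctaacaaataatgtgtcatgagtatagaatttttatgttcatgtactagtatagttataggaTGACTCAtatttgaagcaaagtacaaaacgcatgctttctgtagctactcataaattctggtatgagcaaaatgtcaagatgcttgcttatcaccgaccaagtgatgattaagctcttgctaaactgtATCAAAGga
TCF7 intron, 10599 bp after the start, chr5:134125199-134125399: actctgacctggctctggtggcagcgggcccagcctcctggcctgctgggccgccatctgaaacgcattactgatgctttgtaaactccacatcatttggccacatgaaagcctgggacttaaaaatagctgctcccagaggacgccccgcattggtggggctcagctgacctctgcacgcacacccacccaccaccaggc
DKK3 intron, 31278 bp after the start, chr11:11977334-11977534: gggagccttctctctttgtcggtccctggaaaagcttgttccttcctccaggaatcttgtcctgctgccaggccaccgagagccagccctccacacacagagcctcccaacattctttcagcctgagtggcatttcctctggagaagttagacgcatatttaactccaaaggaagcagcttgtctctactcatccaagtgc
LEF1 intron, 109084 bp after the start, chr4:108058812-108059012: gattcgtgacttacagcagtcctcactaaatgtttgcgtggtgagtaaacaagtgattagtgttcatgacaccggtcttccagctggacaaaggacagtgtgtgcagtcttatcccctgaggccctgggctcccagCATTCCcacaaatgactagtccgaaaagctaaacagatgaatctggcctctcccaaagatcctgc
WNT5B upstream, at -6382 bp from the start, chr12:1623055-1623255: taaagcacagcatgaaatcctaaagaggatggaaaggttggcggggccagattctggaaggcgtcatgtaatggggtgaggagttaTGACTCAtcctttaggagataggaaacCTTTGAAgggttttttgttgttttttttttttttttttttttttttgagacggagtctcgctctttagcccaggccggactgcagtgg

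The AXIN2 region had no peak in Mix 1, 2 and 3. Its fold enrichment was 26.5, 17.97 and 11.8 in EGFR-high, 15.5, 7.87 and 8.46 in NGFR-high and 21.7, 15.6 and 9.92 in EGFR/NGFR-high libraries. The groups did not overlap (exact permutation p = 0.00455, the smallest this design can give; adjusted p = 0.0743 over all regions), and the size of the difference is not given, since it would rest on the value of 1 set for a missing peak. Its window held 1 AP-1 match, at -27 bases from the summit, and no TCF/LEF match. A weaker region at -2119 bp from the AXIN2 start also had no Mix peak and had one in 7 of 9 marker-high libraries (exact permutation p = 0.0455).

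The region downstream of DKK1 had a peak in 1 of 3 Mix libraries (4.24) and in all marker-high libraries. It was at 5.12, 6.62 and 5.87 in EGFR-high, 15.5, 11.4 and 12.2 in NGFR-high and 15.5, 12.3 and 10.4 in EGFR/NGFR-high libraries (exact permutation p = 0.00455). The values of the EGFR-high libraries lay below those of all 6 libraries of the other marker-high sorts. The window held 1 AP-1 match and 1 TCF/LEF match (ATCAAAG on the plus strand).

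The TCF7 region had no peak in the Mix libraries and lay between 4.23 and 12.8 in the marker-high ones (exact permutation p = 0.00455), and its window held none of the 4 motifs. A further TCF7 region 23949 bp after the start, which overlaps an exon, was at 6.29 to 8.51 in Mix and 7.68 to 18.9 in marker-high libraries, which overlap (0.83, exact permutation p = 0.00909). In DKK3, where few UMIs were counted in WM989, 4 regions were higher and 1 lower. The region printed above was at 5.82, 8.48 and 8.23 in Mix and 14.5 to 33.0 in marker-high libraries (1.52, exact permutation p = 0.00455). A region that overlaps a DKK3 exon, 39806 bp after the start, had no Mix peak and was at 9.62 to 26.8 in the 9 marker-high libraries. The lower one, 7242 bp after the start, was at 6.27, 7.54 and 9.68 in Mix and had a peak in 5 of 9 marker-high libraries.

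For LEF1, whose transcript was lower in primed cells of the first experiment, 2 of 16 regions were higher in marker-high libraries and none was lower. The printed region near the far end of the gene was at 23.3, 32.5 and 29.0 in Mix and 33.3 to 68.4 in marker-high libraries (0.83, exact permutation p = 0.00455). WNT5B had 2 lower regions and no higher one. The upstream region was at 21.1, 20.7 and 24.7 in Mix and 12.4 to 20.6 in marker-high libraries (-0.56, exact permutation p = 0.00455), and its printed window held 1 AP-1 and 1 TCF/LEF match. The other lower region overlaps an exon 2372 bp after the start. It was at 95.4, 111.7 and 77.9 in Mix and 60.6 to 86.97 in marker-high libraries, which overlap (-0.35, exact permutation p = 0.0227). WISP1 (CCN4) had 3 higher regions of 9, all in introns and between 15985 and 31804 bp after the start, and at the first of them no Mix library had a peak. None of the 3 regions near WNT5A or the 3 near SFRP1 passed in either direction.

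An AP-1 match lay within 100 bases of the summit in 18.5% of all regions, in 36.4% of the 14572 higher ones and in 12.4% of the 13520 lower ones. Near the 9 genes it was in 7 of the 14 higher regions, 1 of 3 lower ones and 5 of the other 45. A TCF/LEF match was in 7.80% of all regions, in 8.05% of the higher and 9.8% of the lower ones, and in 1 of the 14 higher regions near the 9 genes. TEAD matches lay in 15.7% of all regions, 21.5% of the higher and 14.1% of the lower ones, and E-boxes in 3.50%, 2.33% and 4.34%. Near the 9 genes, 2 of the 14 higher regions held a TEAD match and none an E-box. A match is a string of letters and does not show that a factor binds there.

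**Figure D5:**
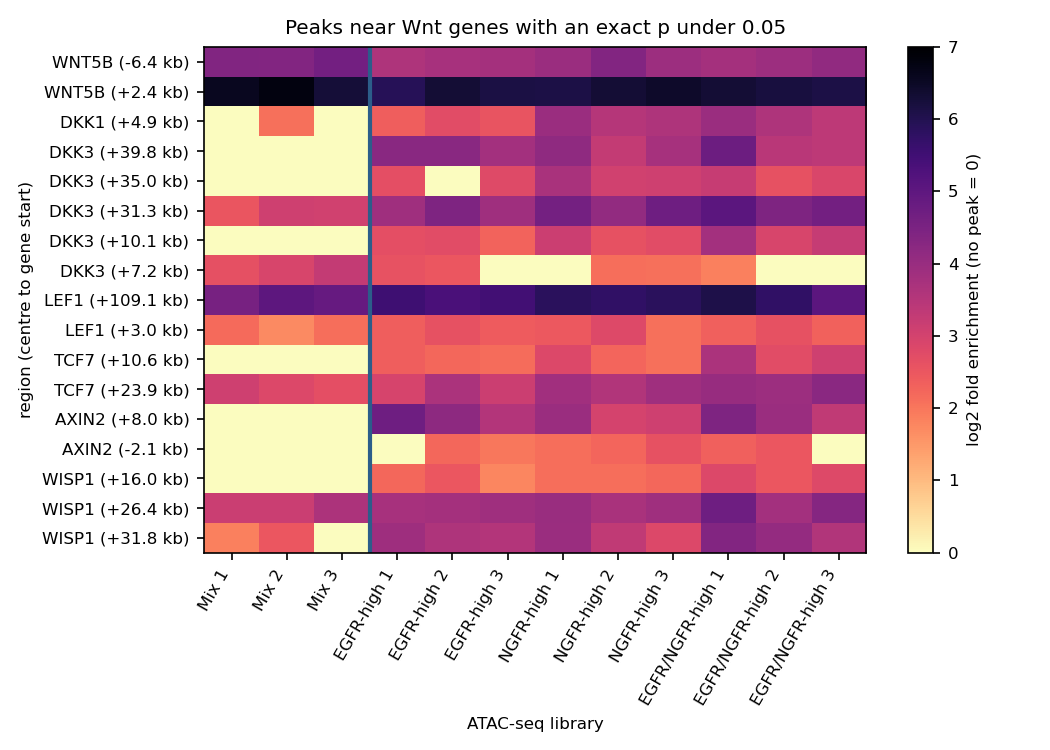
Fold enrichment (log2, color, with no peak drawn as 0) of the 17 regions near the 9 genes with an exact p under 0.05, in each of 12 ATAC-seq libraries, labelled by gene and by the distance of the region's centre from the gene start. Mix libraries are left of the line, and 5 of the regions have a peak in every marker-high library and in no Mix library.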

How the data were processed

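Per the study's methods the single-cell libraries were made with 10x 3' kits and the chromatin libraries with OMNI-ATAC. The submitters' processing notes name Cell Ranger, Bowtie2 2.3.4.1, SAMtools 1.1, MACS2 2.1.1.20160309 and hg38. The authors deposited raw UMI counts per gene and cell, with the cluster of each cell, and 1 peak list per ATAC-seq library, in which each peak has a fold enrichment over the local background and the −log10 of its p and q. The deposited fold enrichment was used. The −log10 of q served only in an alternative at the gene starts, which kept peaks with a value of at least 10.

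The 9 genes and the list of other Wnt genes were chosen with earlier results of these data known. Counts were summed per state, well, cluster or library. Library sums were tested with the edgeR 4.0.16 quasi-likelihood test (R 4.3.3, TMM scaling, low-count filter of edgeR, replicate as a term) with Benjamini-Hochberg adjustment over all genes. The difference between states was tested with library, state and the interaction of state and treatment as terms. The replicate term follows the side-by-side design of r1 and r2. Same-numbered libraries deviated together (r = 0.256 to 0.365 over 6 pairs of treatments, 18389 genes). Residual degrees of freedom were 3, or 4 for the difference between states. Library depths and TMM factors (0.941 to 1.05) are those of the sums over all cells. The states have no test, since the clusters came from the same counts. Doublets were not called here, and the authors' cells were used as deposited. Peaks were merged with bedtools 2.31.1 and compared by exact permutation tests. The edgeR fits and the permutation test were tested on simulated data. For the permutation test the simulated libraries varied independently, with no shift shared within a sort. Named genes were the 9 members, for each its 3 most similar genes (some of which are not reported here), and from the pathway list the 3 with the largest significant change in each direction. Alternatives were DESeq2 1.42.0, its size factors in edgeR, other filters, no replicate term, and each library left out.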

Additional observations from a re-analysis of the deposited data

Results flagged for a closer look

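In drug-susceptible cells of r1, WISP1 in well 2 stood apart from the other 3 wells, at 0.610 CPM (28 UMIs) against 0.0119 to 0.0576 CPM. It was the 1 such case among 36 groups of 4 wells. Chance gives about 1 in 20 where wells are exchangeable, which these are not: they hold pairs from 1 culture, and the share of primed cells was 56.9% to 79.7% in wells 1, 2, 5 and 6 and 6.85% to 9.42% in the others. Wells 5 and 6 were at 1.26 and 1.47 CPM.

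Differences in a treatment effect between primed and drug-susceptible cells stand out where the difference itself passed its edgeR test. For TGFB1 they were -3.82 for DKK1, -2.29 for SFRP1, -0.95 for LEF1 and 1.38 for TCF7 on the log2 scale, primed minus drug-susceptible. For PI3Ki it was -1.09 for SFRP1, where DESeq2 gave -0.90 and no adjusted p, and edgeR -0.32 without PI3Ki r2. With cluster 3 left out of the drug-susceptible cells the TGFB1 difference of DKK1 was -1.68, and with 1 library left out it ran from -4.72 to -2.65. The states were assigned after treatment on the same counts, and with TGFB1 their clusters differed, so these are not effects on fixed groups of cells.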

How the results depend on the processing

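Over the alternatives, single genes lost their call 35 times, gained one 3 times and reversed 4 times. Of the main counts of genes past a threshold, 70 recomputed ones stayed within 1.5 times and 20 did not. For TGFBRi over all cells the main count was 1, against 2 in DESeq2, 0 without the replicate block and 0 to 3 with 1 library left out. For PI3Ki over all cells it was 2, against 1, 0 and 0 to 1. In drug-susceptible cells TGFBRi changed 1 gene, 0 without the replicate block and 0 to 2 with 1 library left out, and PI3Ki 0, or 1 with no filter. TGFB1 changed 2 there, or 1 without cluster 3 (DKK1 lost). In primed cells TGFB1 changed 3, or 1 in DESeq2 and 1 to 2 with 1 library left out. The TGFB1 effect differed between states for 4, or 2 in DESeq2. In WM983B 4 were higher, or 1 with a floor of 20 CPM. At gene starts in ATAC-seq 0 passed, or 1 without replicate 2 (LEF1, 0.22, exact permutation p = 0.0357), so 0 to 1. The causes were not tested, apart from the fewer libraries or genes by construction.

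SFRP1 with PI3Ki in primed cells ran from -1.32 to 0.24 with 1 library left out. The ATAC-seq difference at the DKK1 start, 0.04, ran from -0.037 to 0.18 with 1 replicate number left out (-0.02 without replicate 3) and was -0.012 after centring per library. The centring, the outermost start, leaving out cluster 3 and leaving out libraries for the PI3Ki difference were chosen after seeing the data. DKK1 with TGFB1 over all cells was lost in DESeq2 (adjusted p = 0.113), and DKK1 with PI3Ki over all cells passed without untreated r2 (-1.80, adjusted p = 0.00329). Same-numbered ATAC-seq libraries of different sorts had a mean r of 0.0918 (-8.66e-06 to 0.174, 18 pairs) and others one of -0.0458 (-0.157 to 0.0403, 36 pairs). Not every pair was over 0.1, so the numbers were not taken as a pairing, and the regions were not tested with a block. At the gene starts, with a replicate block 0 members and 980 starts passed, against 1051 without. Few UMIs limit WNT5B and DKK3 in WM989 and WISP1 in the treatment libraries, and primed cells of the PI3Ki libraries numbered 25 and 70.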
